A study of Drosophila melanogaster with 4 samples.

Results

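Proteasome subunit genes of Drosophila melanogaster were followed in whole flies fed on galactose or on glucose. They were taken as every gene whose FlyBase symbol starts with Rpn or Rpt and a digit, or with Prosalpha or Prosbeta, which gave 48 of the 17628 genes counted. Of these, 32 are general subunits and 16 carry a symbol ending in T or R, with or without a digit after it, the names given to paralogs described as limited to the testis. The study counted poly-A RNA from 2 libraries of galactose-fed flies and 2 libraries of glucose-fed flies, all 5 days old and all of the Oregon strain, a standard laboratory wild type. The labels give no sex and no number of flies in a library. They also leave unsaid whether libraries on the same sugar are separate cultures, so a p-value here reflects the spread among these 4 libraries, and that spread may be technical.

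The proteasome is the barrel-shaped protease that degrades proteins tagged with ubiquitin. Its core particle is a stack of rings of alpha and beta subunits, with the proteolytic sites inside the beta rings. A regulatory particle caps the core, with a base whose Rpt ATPases unfold the substrate and thread it into the core, and a lid that removes the ubiquitin chain. Since each particle holds its subunits in fixed ratios, the transcripts of the general subunits are known to be controlled together in many organisms. Drosophila also has additional gene copies for a number of subunits, and several of these make proteasomes of the male germline during sperm formation.

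Total counts were between 21147212 and 25497099 per library. Values are counts scaled to a common library total (CPM) after TMM scaling, a scaling that corrects for library composition, and levels of different genes are compared as CPM per kilobase of annotated exon. Fold changes are log2 ratios of galactose-fed over glucose-fed flies from edgeR's quasi-likelihood test, fitted to 12529 genes that passed a filter on low counts. That filter kept 46 of the proteasome genes, 31 general subunits and 15 paralogs. The test draws the variance of each gene towards that of the other genes. A standard error (SE), interval or p given for a gene is therefore not a measure of the spread of that gene's replicates alone. The SEs of the 31 general subunits lay between 0.2285 and 0.2668. By this test 0.0% of the genes tested were called at an adjusted p of 0.05, and 8.24% had an unadjusted p under 0.05 (5.16% lower and 3.08% higher on galactose). Over all genes tested, log2 fold changes had a median of -0.04 and quartiles of -0.40 and 0.28.

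General subunits were abundant and close to each other in level. The 31 that passed the filter had means over the 4 libraries from 163 CPM (Rpn9) to 423 CPM (Rpn2), between the 91.5th and the 97.3rd percentile of all genes tested. Per kilobase of exon the highest of the 31 stood 3.06-fold and 2.74-fold above the lowest in galactose replicates 1 and 2, and 3.34-fold and 3.44-fold in glucose replicates 1 and 2. Genes of the core particle were higher per kilobase than genes of the regulatory particle. The 13 core genes had medians of 229 and 212 CPM per kilobase in galactose-fed flies, against 235 and 194 in glucose-fed flies. The 18 genes of the regulatory particle had medians of 139.8 and 143.9 CPM per kilobase in galactose-fed flies, against 133.3 and 134 in glucose-fed flies. The core genes are also the shorter ones, with 815 to 1215 exonic bases against 995 to 3412, so this order depends on the division by length.

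The exception was Prosalpha1 (FBgn0263121), 1 of the 7 alpha subunits. It had 5 and 8 counts in galactose-fed flies and 7 and 6 counts in glucose-fed flies, while no other general subunit had fewer than 3023 counts in any library. Its neighbour Prosalpha1R (FBgn0050382) had 0 counts in all 4 libraries, and 3 counts would be 0.125 and 0.135 CPM in galactose-fed flies and 0.117 and 0.139 CPM in glucose-fed flies. In the BDGP6.54 annotation Prosalpha1 lies at 2R:7827303-7828678 and Prosalpha1R at 2R:7830413-7831771, both on the minus strand and 1734 bases apart. Each has 4 exons and 732 coding bases, so the annotation shows a tandem pair with equal coding length. The sources used here do not say how reads that match both genes were counted, and the part of such reads in these values was not tested. The levels of both genes are therefore uncertain, and neither entered the test. Prosalpha1 counts in the summed level of the general subunits below, and Prosalpha1R in the comparison of gene structures.

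**Figure D1:**
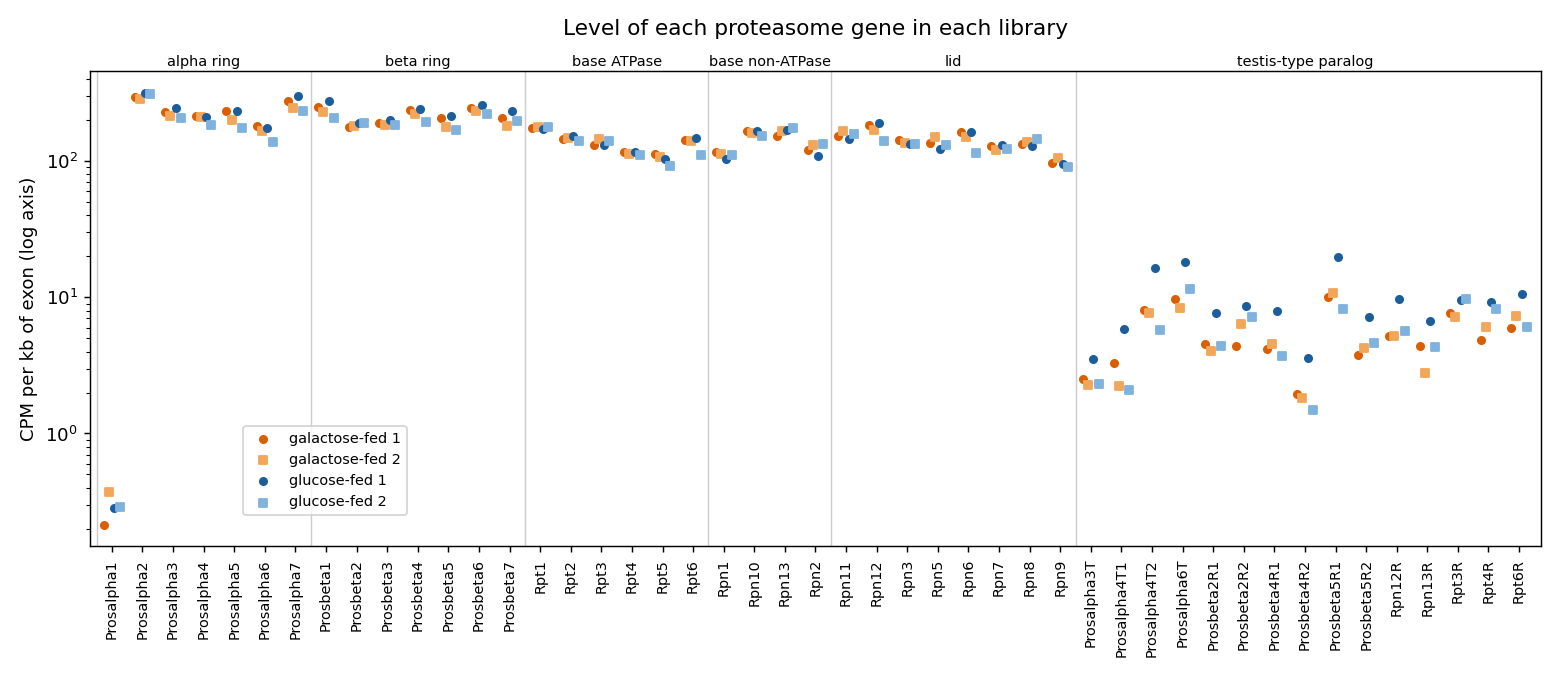
Level of each proteasome gene with counts, in CPM per kilobase of exon on a log axis, with 1 point per library (galactose-fed left, glucose-fed right within a gene). The general subunits apart from Prosalpha1 lie between 90.3 and 318 in every library, the paralogs between 1.49 and 19.9, and Prosalpha1 under 1; Prosalpha1R, with 0 counts, is not drawn.

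Transcripts of the general subunits stood at nearly the same level on both sugars. None of the 31 tested passed edgeR's quasi-likelihood test, and their adjusted p lay between 0.817 and 0.9994. None had an unadjusted p under 0.05, and DESeq2 and limma-voom also called 0 of them, where these tools called 0.718% and 0.0% of all genes. The 31 log2 fold changes ran from -0.16 to 0.18 with a median of 0.02, 19 above 0 and 12 below, a range that held 26.9% of all genes tested. The ratio of the diet means was between 0.897 and 1.14. The 95% intervals of single subunits reached from -0.74 at the lowest to 0.82 at the highest. For 3 of the 31 both galactose values were below both glucose values, which held for 23.4% of all genes. For 5 they were both above, which held for 18.8% of all genes.

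Alpha subunits form the outer rings of the core and gate the entry of substrates. Log2 fold changes of the 6 tested had a median of 0.03. Prosalpha6 (FBgn0250843), with the smallest p of the ring, was at 194.0 and 177 CPM in galactose-fed flies and at 186 and 149 CPM in glucose-fed flies. Its log2 fold change was 0.15 ± 0.25 (SE), and the groups overlapped. Prosalpha2 (FBgn0086134), the highest of all general subunits per kilobase, was at 273 and 265 CPM in galactose-fed flies and at 293 and 286 CPM in glucose-fed flies. Both of its galactose values lay below both glucose values, with a log2 fold change of -0.10 ± 0.23. Prosalpha4 and Prosalpha5 had log2 fold changes of 0.10 and 0.08, and both overlapped between diets.

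Beta subunits carry the proteolytic sites, of which Prosbeta1, Prosbeta2 and Prosbeta5 hold the caspase-like, trypsin-like and chymotrypsin-like activities. Their 7 log2 fold changes had a median of -0.02. Prosbeta1 (FBgn0010590) was at 212 and 197 CPM in galactose-fed flies and at 236 and 178 CPM in glucose-fed flies. Prosbeta2 (FBgn0023174) was at 185 and 189 CPM in galactose-fed flies and at 196 and 198 CPM in glucose-fed flies. Prosbeta5 (FBgn0029134), chosen after its values were seen, was at 235 and 204 CPM in galactose-fed flies and at 244 and 195 CPM in glucose-fed flies. Of the genes for these 3 catalytic subunits, Prosbeta2 alone had groups that did not overlap. For Prosbeta1 and Prosbeta5 the highest and the lowest value were both on glucose. Among the subunits without a catalytic site, Prosbeta7 had the lowest log2 fold change of all general subunits, -0.16 ± 0.24, with 250.5 and 220.4 CPM in galactose-fed flies and 286 and 239 CPM in glucose-fed flies. Leaving out galactose replicate 1 gave -0.32 for this gene, and leaving out glucose replicate 1 gave -0.02, with Rpn13 then the lowest. Prosbeta3 and Prosbeta4 had values of -0.04 and 0.09.

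The base holds 6 ATPases in a ring, and their median log2 fold change was 0.03. Rpt5 (FBgn0028684), known in yeast as one of the ATPases whose tail opens the gate of the core, was at 183 and 176 CPM in galactose-fed flies and at 169 and 151 CPM in glucose-fed flies. It was the 1 ATPase gene with both galactose values above both glucose values, with a log2 fold change of 0.17 ± 0.24. Rpt6 (FBgn0020369) was at 201 and 199 CPM in galactose-fed flies and at 208 and 155 CPM in glucose-fed flies, where only glucose replicate 2 stood apart. Rpt1, Rpt3 and Rpt4 had log2 fold changes of 0.02, 0.04 and 0.02.

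The remaining base subunits are scaffolds and ubiquitin receptors, with a median log2 fold change of 0.03. Rpn2 (FBgn0028692), the large scaffold that holds the receptor Rpn13, was at 413 and 445 CPM in galactose-fed flies and at 375 and 458 CPM in glucose-fed flies. Rpn1 (FBgn0028695), the other large scaffold and a docking site for shuttle factors, was at 357 and 345 CPM in galactose-fed flies and at 316 and 339 CPM in glucose-fed flies. The values of Rpn1 did not overlap between diets, and those of Rpn2 did, with the highest and the lowest value both on glucose. The receptors Rpn10 and Rpn13 had log2 fold changes of 0.02 and -0.10.

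Lid genes had the highest median of the role groups, 0.08 over 8 genes, with 6 above 0. Rpn5 (FBgn0028690), a lid scaffold, had the smallest p of all general subunits (0.464 before adjustment by edgeR's quasi-likelihood test). It was at 259 and 286 CPM in galactose-fed flies and at 232 and 248 CPM in glucose-fed flies, a log2 fold change of 0.18 ± 0.23 with groups that did not overlap. Rpn6 (FBgn0028689), which braces the lid against the core, was at 318 and 295 CPM in galactose-fed flies and at 317 and 224 CPM in glucose-fed flies. Its log2 fold change of 0.18 ± 0.27 rested on the low value of glucose replicate 2, since the remaining 3 libraries lay close together. Rpn12 also had its lowest value in glucose replicate 2, with 183 and 167 CPM in galactose-fed flies and 191 and 140.0 CPM in glucose-fed flies. Rpn11, the deubiquitinating enzyme of the lid, was at 185 and 201 CPM in galactose-fed flies and at 175 and 190 CPM in glucose-fed flies, which overlapped. Rpn9 had a log2 fold change of 0.12, and 15.7% of its exonic bases are shared with exons on the opposite strand. Exons of 13 of the 32 general subunits overlap opposite-strand exons to some extent, and the labels state no strand marking, so reads of such partners cannot be told apart.

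**Figure D2:**
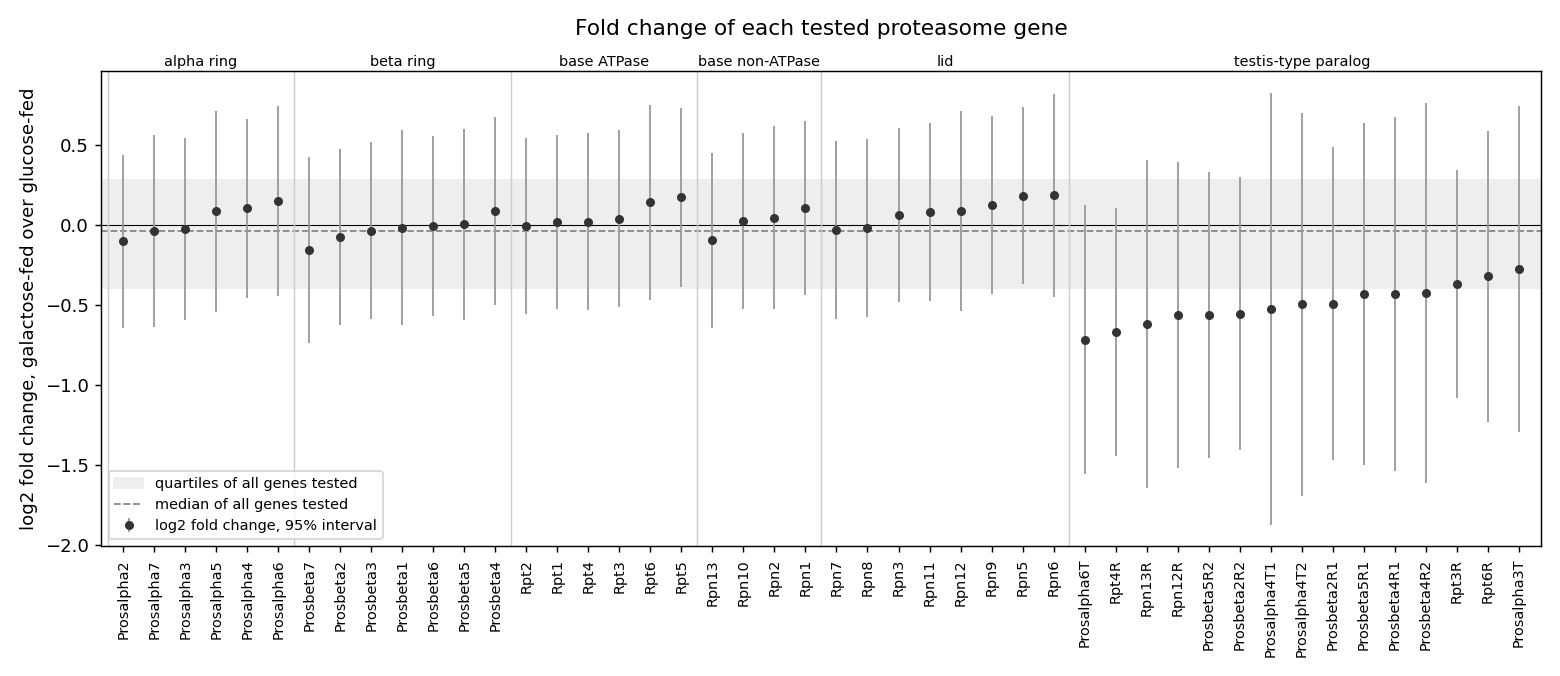
Log2 fold change of each tested proteasome gene, galactose-fed over glucose-fed, with its 95% interval from edgeR's quasi-likelihood fit, ordered within role groups; the grey band and dashed line are the quartiles and median of all genes tested. The 31 general subunits lie between -0.16 and 0.18 and the 15 paralogs between -0.72 and -0.28, and every interval includes 0.

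The glucose libraries most often held the extremes among the general subunits. Glucose replicate 1 held the highest value for 15 of the 31 and glucose replicate 2 the lowest for 18, where 30.7% of all genes tested were highest in the first and 30.7% lowest in the second. Of the core genes, 12 of 13 were lower in glucose replicate 2 than in glucose replicate 1, with a median log2 ratio of -0.26, against 10 of 18 and a median of -0.04 for the regulatory particle. In galactose-fed flies 12 of the 13 core genes were also lower in replicate 2, with a median of -0.09, against 9 of 18 and a median of 0.005 for the regulatory particle. The median log2 ratio over all genes was -0.01 in each diet.

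This difference between replicates ran with transcript length across the 31 subunits. The Spearman correlation between exonic length and the log2 ratio of replicate 2 over replicate 1 was 0.506 in galactose-fed flies and 0.503 in glucose-fed flies (n = 31 genes, which share the same libraries). The Spearman correlation of exonic length with the log2 fold change of the diets was 0.392 over the same genes. Rpn2, the longest at 3412 exonic bases, had the highest ratio on glucose, 0.29, and Rpn6, with 1945 bases, had the lowest, -0.50, so length did not order every gene. The core genes are the shorter ones, with 815 to 1215 exonic bases against 995 to 3412, and no correlation was taken within either particle. The part of length, of the particle or of RNA quality in these values was not tested.

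**Figure D3:**
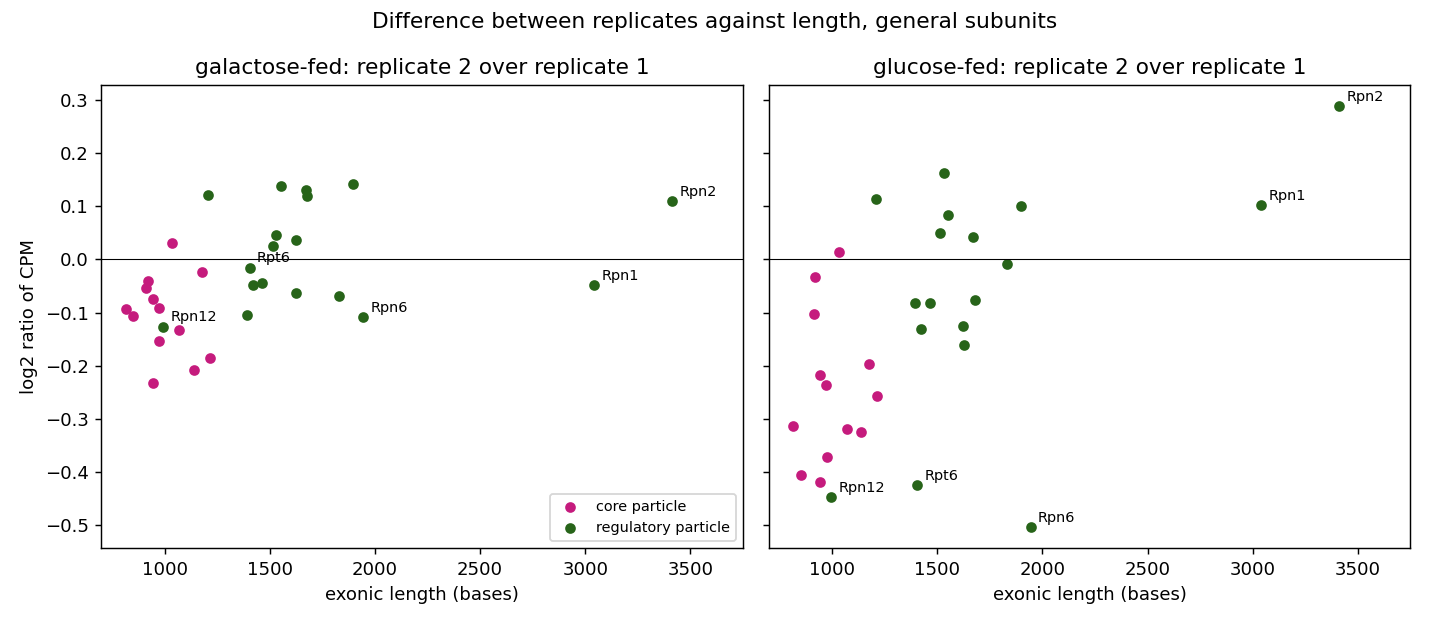
Log2 ratio of replicate 2 over replicate 1 against annotated exonic length in bases for the 31 tested general subunits, galactose-fed flies left and glucose-fed flies right. Most short core genes lie below 0 in both panels, while Rpn2 lies at 0.11 and 0.29.

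The paralogs named T or R were counted at a few percent of their general subunits. The 15 with counts had between 40 and 566 counts in a library and means over the libraries from 2.35 to 13.5 CPM. Relative to the general subunit of the same name, per kilobase, the median over the 15 was 2.81% and 3.10% in galactose replicates 1 and 2, against 4.57% and 3.09% in glucose replicates 1 and 2. Prosalpha6T, which acts in the maturation of sperm nuclei, had the highest share on glucose, at 5.34% and 5.06% of Prosalpha6 in galactose-fed flies and 10.5% and 8.27% in glucose-fed flies. On galactose the highest shares were 5.80% for Rpt3R in replicate 1 and 6.02% for Prosbeta5R1 in replicate 2. Prosbeta4R2 had the lowest share in every library but glucose replicate 1, at 0.824% and 0.817% of Prosbeta4 in galactose-fed flies and 1.49% and 0.768% in glucose-fed flies. Since the RNA is from whole bodies, a low share does not tell a low level in many cells from a high level in few.

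The paralogs also differed from the general subunits in annotated gene structure. Of the 16, 9 have fewer exons in the transcript with the longest coding sequence than their general subunit, 7 have as many, and none has more. Single-exon genes made up 6 of 16 paralogs and 4 of 32 general subunits. Of the 16 pairs, 10 have the paralog on another chromosome arm. Rpt3, Rpt4, Rpt6 and Prosalpha4 are the general subunits on the X chromosome, and the paralogs of all 4 are on autosomes, while Prosbeta2R1 and Rpn13R are on the X with their general subunits on autosomes. Coding length was 1194 bases in Rpt4R against 1191 in Rpt4 and 747 bases in both Prosalpha4T1 and Prosalpha4, but 972 in Rpn13R against 1272 in Rpn13.

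All 15 counted paralogs had a lower mean on galactose, and none passed the test. Their log2 fold changes ran from -0.72 to -0.28 with a median of -0.50, beside a median of -0.04 for all genes and of 0.02 for the general subunits. Adjusted p values from edgeR's quasi-likelihood test lay between 0.62 and 0.846, no paralog had an unadjusted p under 0.05, and DESeq2 and limma-voom called 0 of them. For 6 of the 15 both galactose values were below both glucose values (23.4% of all genes), and for none were they both above (18.8% of all genes). Whether the paralogs and the general subunits differed in their response to the diet was not tested.

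Of the core paralogs, Prosalpha6T (FBgn0032492, 2L:13232039-13233058, a single exon) was at 9.88 and 8.54 CPM in galactose-fed flies and at 18.5 and 11.8 CPM in glucose-fed flies. Both glucose values were the higher ones, and its log2 fold change was -0.72 ± 0.35 (SE), or -0.35 without glucose replicate 1. Prosalpha4T2 (FBgn0017556, 2R:24500780-24502277) was at 10.1 and 9.62 CPM in galactose-fed flies and at 20.7 and 7.18 CPM in glucose-fed flies. Its highest and lowest values were both on glucose, and its log2 fold change was -0.50 ± 0.50. Prosbeta5R1 (FBgn0034842, 2R:23308654-23309816) also had both extremes on glucose, with 11.1 and 11.9 CPM in galactose-fed flies and 22.1 and 9.08 CPM in glucose-fed flies. Prosbeta2R2 (FBgn0037296, 3R:5217751-5219528) was at 5.81 and 8.36 CPM in galactose-fed flies and at 11.4 and 9.40 CPM in glucose-fed flies, and did not overlap.

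Prosbeta5R2 (FBgn0051742) was at 5.77 and 6.47 CPM in galactose-fed flies and at 11.1 and 7.04 CPM in glucose-fed flies. Prosbeta2R1 (FBgn0029812) was at 4.90 and 4.36 CPM in galactose-fed flies and at 8.30 and 4.72 CPM in glucose-fed flies, where replicate 2 lay among the galactose values. The lowest core paralogs were Prosalpha3T, Prosalpha4T1, Prosbeta4R1 and Prosbeta4R2, each under 4 CPM in both galactose libraries. In glucose replicate 1 they were at 3.12, 5.22, 6.62 and 5.92 CPM, and in glucose replicate 2 at 2.04, 1.85, 3.10 and 2.45 CPM, so all 4 overlapped between diets. Of the exonic bases of Prosbeta4R2, 4.19% lie in exons of another gene on the same strand.

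Of the paralogs of the regulatory particle, Rpt4R (FBgn0036224, 3L:11941912-11943485) had the smallest p (0.0789 before adjustment by edgeR's quasi-likelihood test). It was at 7.31 and 9.17 CPM in galactose-fed flies and at 14.0 and 12.3 CPM in glucose-fed flies, a log2 fold change of -0.67 ± 0.33 with no overlap. Rpt3R (FBgn0037742, 3R:9754735-9756510) was at 11.2 and 10.5 CPM in galactose-fed flies and at 13.9 and 14.1 CPM in glucose-fed flies. It was the 1 paralog not highest in glucose replicate 1, and its log2 fold change of -0.37 ± 0.30 had the smallest SE of the 15. Rpt6R (FBgn0039788) was at 8.59 and 10.6 CPM in galactose-fed flies and at 15.2 and 8.80 CPM in glucose-fed flies, which overlapped. Rpn12R was at 4.86 and 4.90 CPM in galactose-fed flies and at 9.16 and 5.28 CPM in glucose-fed flies. Rpn13R was at 4.77 and 3.01 CPM in galactose-fed flies and at 7.29 and 4.68 CPM in glucose-fed flies.

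The size of this difference depended on which glucose library was kept. Glucose replicate 1 was the highest of the 4 libraries for 14 of the 15 paralogs, which held for 30.7% of all genes. Without glucose replicate 1 the median log2 fold change of the paralogs was -0.03, with 8 of 15 below 0. Without glucose replicate 2 it was -0.87, with all 15 below 0. By edgeR's quasi-likelihood test 10 of the 15 then had an unadjusted p under 0.05, as did 2341 of the 12925 genes tested in that setting, and the lowest adjusted p of a paralog was 0.106. With 1 glucose library left, its spread is assumed to equal that of the galactose libraries.

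**Figure D4:**
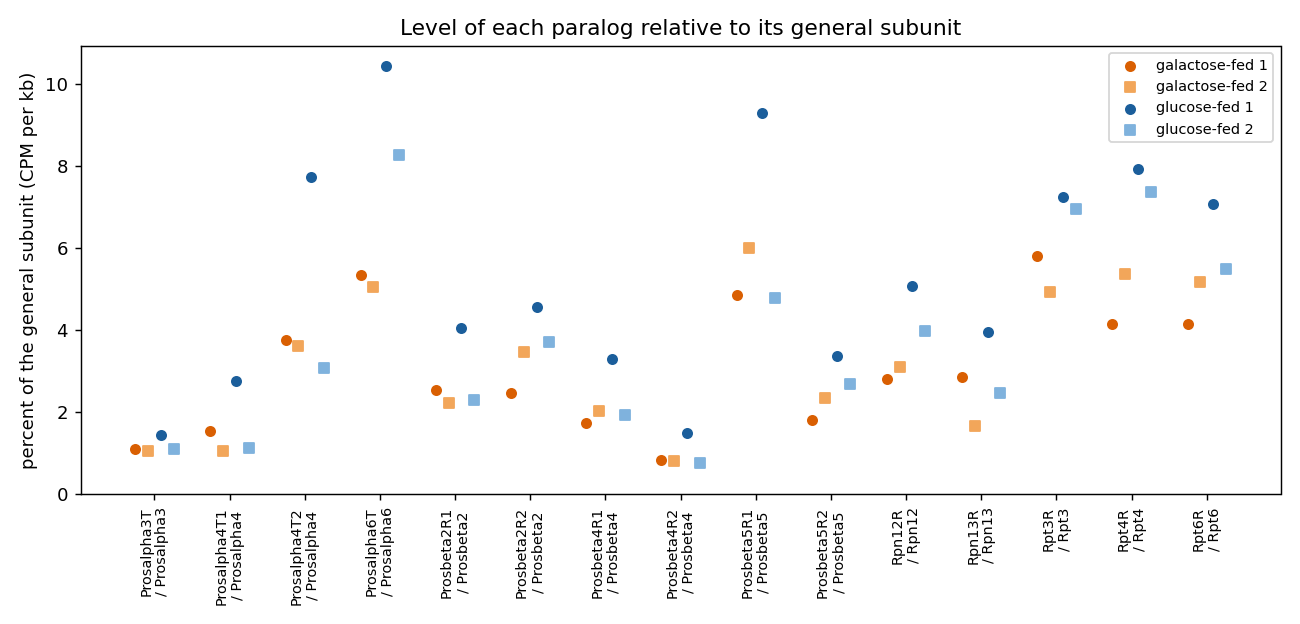
Level of each counted paralog as a percent of the general subunit of the same name, both in CPM per kilobase of exon, with 1 point per library. Glucose replicate 1 is the highest point for all 15 pairs, and glucose replicate 2 lies above both galactose points for 8 pairs and not for the remaining 7.

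Markers of the testis were, like the paralogs, highest in glucose replicate 1. Summed over the 34 testis markers, of which Mst84Da had 0 counts in every library, the level was 3044 and 2745 CPM in galactose-fed flies, against 5884 and 1870 CPM in glucose-fed flies. The summed level of the paralogs was 96.2 and 98.2 CPM in galactose-fed flies, against 172 and 103.7 CPM in glucose-fed flies. In glucose replicate 2 the sums differed: the testis markers were there at 0.552 of their mean over the 4 libraries and the paralogs at 0.882. The paralog sum was 3.16% and 3.58% of the testis marker sum in galactose-fed flies, against 2.93% and 5.55% in glucose-fed flies.

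Log2 fold changes of the testis markers had a median of -0.40, with 30 of 33 tested below 0 and 0 called by edgeR's quasi-likelihood test. An unadjusted p under 0.05, which 8.24% of all genes had, was found for tomb, lower on galactose at -1.34, and for twe, higher at 0.78, both named after their values were seen. Of the 33 markers, 27 were highest in glucose replicate 1 (30.7% of all genes) and 22 were lowest in glucose replicate 2 (30.7% of all genes). For 5 of the 33 both galactose values were below both glucose values (23.4% of all genes). For 1 both were above (18.8% of all genes), and 27 overlapped between diets. Markers of the male accessory gland summed to 535 and 781 CPM in galactose-fed flies and 1028 and 470.1 CPM in glucose-fed flies, again highest in glucose replicate 1. Markers of the female germline summed to 4043 and 6694 CPM in galactose-fed flies and 2760.2 and 4260 CPM in glucose-fed flies, lowest in glucose replicate 1. Of the 14 counted, 10 were lowest in glucose replicate 1 (27.0% of all genes) and 4 in glucose replicate 2 (30.7%). Galactose replicate 2 held the highest value for 12 of the 14 (29.4% of all genes). The highest level was that of CycB. Log2 fold changes were above 0 for 13, and for 6 both galactose values were above both glucose values (18.8% of all genes). By edgeR's quasi-likelihood test 5 of the 14 had an unadjusted p under 0.05, and 0 were called. Markers of both the testis and the female germline were counted in every library. In whole bodies, fewer cells of a type and less RNA per cell cannot be told apart, and the part of the sex or tissue make-up of a library in the paralog values was not tested. Egg shell and yolk markers summed to 34045 and 32362 CPM in galactose-fed flies and 38020.5 and 33177 CPM in glucose-fed flies. Their sum too was highest in glucose replicate 1, where the female germline sum was lowest. Of these 14 genes, 8 were highest there (30.7% of all genes) and 9 lowest in glucose replicate 2 (30.7% of all genes). Both galactose values were below both glucose values for Vm26Ab, Yp1, Yp2 and Yp3 (23.4% of all genes). They were both above for Cp19 (18.8% of all genes), and these genes were named after their values were seen. Muscle markers summed to 6531 and 5090.0 CPM in galactose-fed flies and 7364 and 10841 CPM in glucose-fed flies. Of the 12 muscle markers tested, 11 had a log2 fold change below 0, with a median of -0.62. For 9 of them both galactose values were below both glucose values (23.4% of all genes). By edgeR's quasi-likelihood test 5 of the 12 had an unadjusted p under 0.05, and 0 were called. None of the tested accessory gland, egg shell and yolk markers had such a p.

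The summed level of the 32 general subunits was 7195 and 7044 CPM in galactose-fed flies, against 7249 and 6683 CPM in glucose-fed flies, between 0.949 and 1.03 of its mean. Before TMM scaling these genes took 0.733% and 0.741% of the counts in galactose-fed flies, against 0.730% and 0.618% in glucose-fed flies. The sum of the paralogs was 1.34% and 1.39% of the general subunit sum in galactose-fed flies, against 2.38% and 1.55% in glucose-fed flies.

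**Figure D5:**
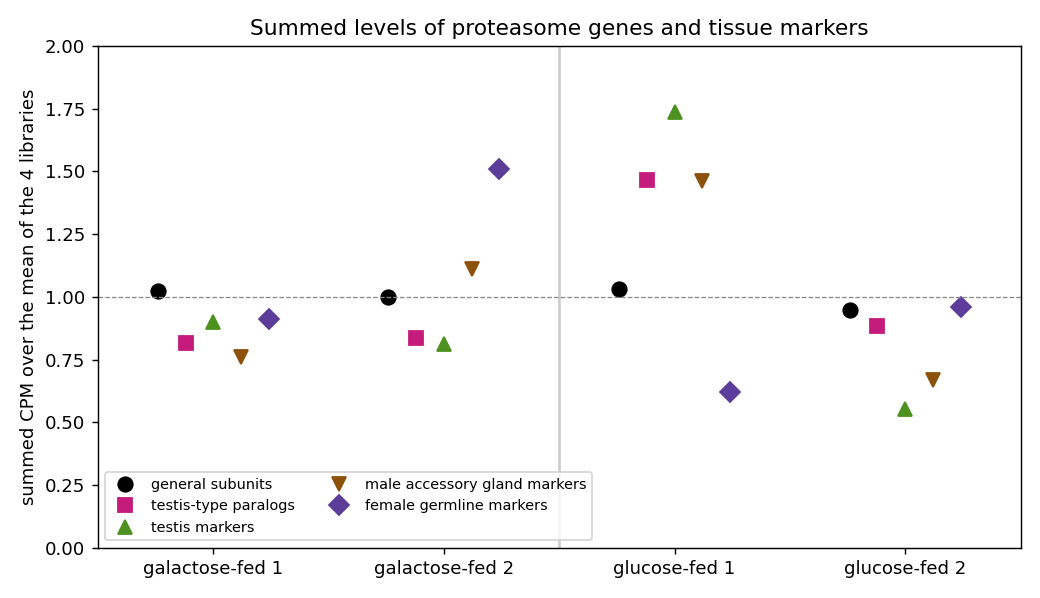
Summed CPM of the general subunits, the paralogs and 3 lists of tissue markers in each library, each divided by its own mean over the 4 libraries, galactose-fed left and glucose-fed right. Paralogs, testis and accessory gland markers are highest in glucose replicate 1, where female germline markers are lowest. The general subunits stay between 0.949 and 1.03 after TMM scaling. Not drawn are egg shell and yolk markers, also highest in glucose replicate 1 (1.11), and muscle markers, highest in glucose replicate 2 (1.45).

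Other genes of the ubiquitin and proteasome pathway also gave no call. Of 25 genes written for 6 lists, 23 were in the count table and tested, and 0 passed edgeR's quasi-likelihood test in either direction. Their median log2 fold change was -0.06, with 11 above 0 and 12 below. For 7 of the 23 both galactose values were above both glucose values (18.8% of all genes), and for 5 both were below (23.4% of all genes).

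The 3 shuttle receptors, which carry ubiquitin-tagged proteins to the proteasome, all had higher values in both galactose libraries (18.8% of all genes). Rad23 (FBgn0026777) was at 169 and 209.9 CPM in galactose-fed flies and at 138 and 138 CPM in glucose-fed flies, a log2 fold change of 0.46 ± 0.25. Ubqn and rngo, chosen after their values were seen, had log2 fold changes of 0.33 and 0.20. The 2 deubiquitinases Uch-L5 and Usp14 bind the proteasome and were also higher in both galactose libraries (18.8% of all genes). Uch-L5 (FBgn0011327) was at 126 and 127 CPM in galactose-fed flies and at 118 and 79.0 CPM in glucose-fed flies. Usp14, chosen after its values were seen, was at 168 and 168 CPM in galactose-fed flies and at 145 and 129 CPM in glucose-fed flies. The related Uch-L5R, also chosen after its values were seen, was at 5.73 and 5.26 CPM in galactose-fed flies and at 9.94 and 5.47 CPM in glucose-fed flies, highest in glucose replicate 1.

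The transcription factor gene cnc (FBgn0262975), whose product raises proteasome genes under stress, was at 246 and 265 CPM in galactose-fed flies and at 214 and 193 CPM in glucose-fed flies. Its values did not overlap, with a log2 fold change of 0.33 ± 0.24 and an adjusted p of 0.694 by edgeR's quasi-likelihood test. In the same list maf-S, chosen after its values were seen, was lower in both galactose libraries, with a log2 fold change of -0.235. Keap1 and Pngl, also chosen after their values were seen, overlapped between diets. Npl4 (FBgn0039348), a cofactor of the unfoldase that extracts tagged proteins, was at 307 and 256 CPM in galactose-fed flies and at 381 and 491 CPM in glucose-fed flies. Its log2 fold change was -0.63 ± 0.26, the only one of the 23 with an unadjusted p under 0.05, and its adjusted p was 0.603 by the same edgeR test. Like Npl4, the other tested genes of the unfoldase list, Ufd1 and p47, were lower in both galactose libraries (23.4% of all genes). Ufd1 and p47, chosen after their values were seen, had log2 fold changes of -0.17 and -0.10. TER94, also written for that list, was not in the count table. The gene RpL40, which encodes ubiquitin fused to a ribosomal protein, was at 1345 and 1117 CPM in galactose-fed flies and at 1427 and 1644 CPM in glucose-fed flies. Among genes of assembly, activation and inhibition, ntc, which encodes an F-box protein needed in sperm formation, had the smallest p, with 23.0 and 21.7 CPM in galactose-fed flies and 36.7 and 18.9 CPM in glucose-fed flies. It too was highest in glucose replicate 1.

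In the authors' deposited table, 0.745% of genes with an adjusted p were under 0.05, and no proteasome gene was among them. Its lowest adjusted p was 0.883 for the general subunits and 0.68 for the paralogs. Turned to galactose over glucose, the log2 fold changes in the authors' deposited table had medians of 0.06 over the 32 general subunits and -0.28 over 15 paralogs. These values are smaller in size than the ratios of the mean counts listed with them, so their size cannot be set against edgeR's. For Prosalpha6T the listed means were 345 on glucose and 219 on galactose, beside a turned log2 fold change of -0.49.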

How the data were processed

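The authors deposited raw read counts per gene for 4 libraries. Alignment and counting tools named, per the submitters' processing notes, are TopHat2 2.0.12, Bowtie2 2.2.3 and HTSeq 0.6.1, beside DESeq2 and the build BDGP6. The strand setting was not given in the sources used here. A second table deposited by the authors holds a normalised count signal per diet, a log2 fold change of glucose over galactose, and a raw and an adjusted p-value.

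Identifiers were named through a reference gene table (17252 of 17628 matched), and coordinates, exons and lengths come from the BDGP6.54 annotation. Counts were fitted with edgeR 4.0.16 in R 4.3.3: filterByExpr (minimum count 10), TMM, quasi-likelihood F test on the diet without a block, Benjamini-Hochberg adjustment over all genes at 0.05. Standard errors and 95% intervals follow from the F statistic. DESeq2 1.42.0, limma-voom (limma 3.58.1), other scalings and filters, a replicate block and leaving out each library were alternatives. The tests were checked on simulated counts with 200 changed genes. The changes set there were larger than any fitted to a proteasome gene in the main fit, and genes at the levels of the lowest paralogs were left unchanged. The check therefore does not cover changes of the size seen here.

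Members and lists were chosen with earlier results of these data known. Named genes were, per role group, the 4 with the smallest p and the highest and lowest per kilobase, every paralog with counts, and per pathway list any gene with an unadjusted p under 0.05 or else the one with the smallest p. Of 88 tissue markers in 5 lists, 85 were in the table. Protein and promoter sequences, and a set of members without near-identical copies, were not used here.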

Additional observations from a re-analysis of the deposited data

How the results depend on the processing

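No proteasome gene was called under any of the 11 alternatives. The paralogs' median log2 fold change was below 0 in each, from -0.64 (upper-quartile scaling) to -0.38 (limma-voom) with all 4 libraries, and from -0.87 (without glucose replicate 2) to -0.03 (without glucose replicate 1) with 1 library left out. The general subunits' median was between -0.056 and 0.089 with 1 library left out and -0.089 with upper-quartile scaling, which moved the median of all genes by -0.111. Relative to it the general subunits stood about as in the main fit. Over all genes DESeq2 called 90, and leaving out 1 library gave 0 to 549 calls, 549 without glucose replicate 1 and 147 without glucose replicate 2. Same-numbered libraries deviated together (r = 0.263 over 12529 genes), with no label that makes them pairs. With the replicate block 0 genes were called, 1842 had an unadjusted p under 0.05 against 1033 without it, and the paralogs' median was -0.39. The planned comparison without near-identical copies was not run, since no protein sequences were used here.

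Another scaling shifts the fold changes of all genes together, so values near 0 took the other sign. With upper-quartile scaling the log2 fold change was -0.012 for Prosalpha4, -0.032 for Prosalpha5, -0.028 for Prosbeta4, -0.092 for Rpt1, -0.074 for Rpt3, -0.093 for Rpt4, -0.006 for Rpn1, -0.089 for Rpn10, -0.064 for Rpn2, -0.033 for Rpn11 and -0.035 for Rpn12. With median-of-ratios scaling, which moved the median of all genes by 0.052, and with DESeq2, it was 0.034 for Prosbeta1 and 0.011 for Prosbeta3. With 1 library left out, where the lone library of a diet is assumed to vary like the other diet's, the cause of a change of sign was not tested. The log2 fold change was between -0.107 and 0.305 for Prosalpha5, -0.203 and 0.197 for Prosbeta1, -0.133 and 0.013 for Prosbeta3, -0.056 and 0.251 for Prosbeta4, -0.038 and 0.048 for Rpt1, -0.028 and 0.085 for Rpt3, and -0.071 and 0.059 for Rpt4. It was between -0.053 and 0.366 for Rpt6, -0.068 and 0.089 for Rpn10, -0.095 and 0.200 for Rpn2, -0.118 and 0.322 for Rpn12, and -0.042 and 0.456 for Rpn6. For paralogs it was between -0.541 and 0.064 for Prosalpha3T, -1.075 and 0.410 for Prosalpha4T1, -1.059 and 0.458 for Prosalpha4T2, -0.870 and 0.217 for Prosbeta4R1, -0.916 and 0.347 for Prosbeta4R2, -0.932 and 0.342 for Prosbeta5R1, and -0.658 and 0.124 for Rpt6R, each above 0 only without glucose replicate 1. For ntc it was between -0.713 and 0.236.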
